A study of Mus musculus with 6 samples.

Results

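The genes of respiratory complex I were examined as RNA in mouse cerebral cortex. They were taken as all protein-coding rows whose name begins with Nduf followed by a, b, c, s or v, which gave 46 genes of the 54532 in the table, 22046 of them protein-coding. The set holds 36 subunits of the complex, which fall into 4 structural modules and the acyl carrier subunit Ndufab1, the pair Ndufa4 and Ndufa4l2, and 8 assembly factors named Ndufaf. The other 5 rows named Nduf are 4 processed pseudogenes and Ndufb1-ps, annotated as noncoding, and were not members. RNA came from Fam69c KO mice (Fam69c-/-, 3 libraries, KO1 to KO3) and wild-type mice (WT, 3 libraries, WT1 to WT3), all aged 12 months, with no other treatment given. Fam69c encodes a kinase-like protein of the secretory pathway, and the title of the series links it to stress granules and the inflammasome. The labels give neither the design of the Fam69c allele nor the strain, and nothing in them states that the libraries stem from different mice, so p-values reflect only the spread of these libraries, which may be technical.

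Complex I is the entry point of the respiratory chain in the inner mitochondrial membrane. Its peripheral arm oxidises NADH in the N module and reduces ubiquinone in the Q module, and its membrane arm pumps protons. Most subunits are encoded in the nucleus and 7 in the mitochondrial genome. The core subunits, some of which carry the cofactors, are shared with bacteria, whereas the supernumerary subunits surround them. Assembly factors join modules, insert clusters or modify subunits and are absent from the finished enzyme. Neurons depend on the respiratory chain for most of their ATP, so transcripts of these genes are abundant in brain.

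The libraries held from 30935326 to 35065884 reads, recovered from the deposited FPKM values (reads scaled to gene length and a size set for each library), with 25630 to 26586 genes above 0. Fam69c had 1.54, 1.84 and 1.42 FPKM in the KO libraries, against 2.03, 1.57 and 2.08 FPKM in WT, and its log2 fold change of -0.19 had a 95% interval from -0.49 to 0.11. The groups overlap, so the RNA does not check the genotype labels. The 7 markers of excitatory cortical neurons were measured in the 6 libraries and summed to between 1768 and 1878 FPKM in KO and between 1774 and 2000 FPKM in WT. Summed markers of striatum, the structure beneath the cortex, ranged widely, with 212, 405 and 350 FPKM in KO and 442, 455 and 156 FPKM in WT, so that KO1 and WT3 stood apart. Of 15694 genes that averaged 0.5 FPKM or more, 0 passed limma at a Benjamini-Hochberg adjusted p of 0.05 (0%), with 343 lower and 256 higher at an unadjusted p under 0.05.

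None of the 46 complex I genes, each of which entered the test, passed it between Fam69c KO and WT. Their adjusted p was at least 0.999 in limma. The genes nevertheless lay mostly to one side: 38 of 46 (82.6%) had a log2 fold change below 0, against 52% of all genes tested. Their median log2 fold change was -0.069, beside -0.0042 over all genes tested and -0.0052 over the 12987 protein-coding ones. That shift is smaller than the pooled within-group SD of the library medians, 0.102. At an unadjusted p under 0.05, 1 member (2.17%) was lower in KO, Ndufv3, where 2.19% of all genes tested were, and 0 were higher, where 1.63% of all genes were. The groups overlapped for all 46 genes, while 4.7% of all genes had every KO library below every WT library and 4.17% the reverse. The count lower at an unadjusted p under 0.05 rested on single libraries. It was 10 without WT3 (4.12% of all genes) and 6 without KO1 (3.47%), and it was 0 without KO2 (1.45%), KO3 (1.94%), WT1 (1.52%) or WT2 (1.74%). It was 12 with sample weights (5.58%), and 0 with no filter (1.92%) or no variance trend (2.01%).

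**Figure D1:**
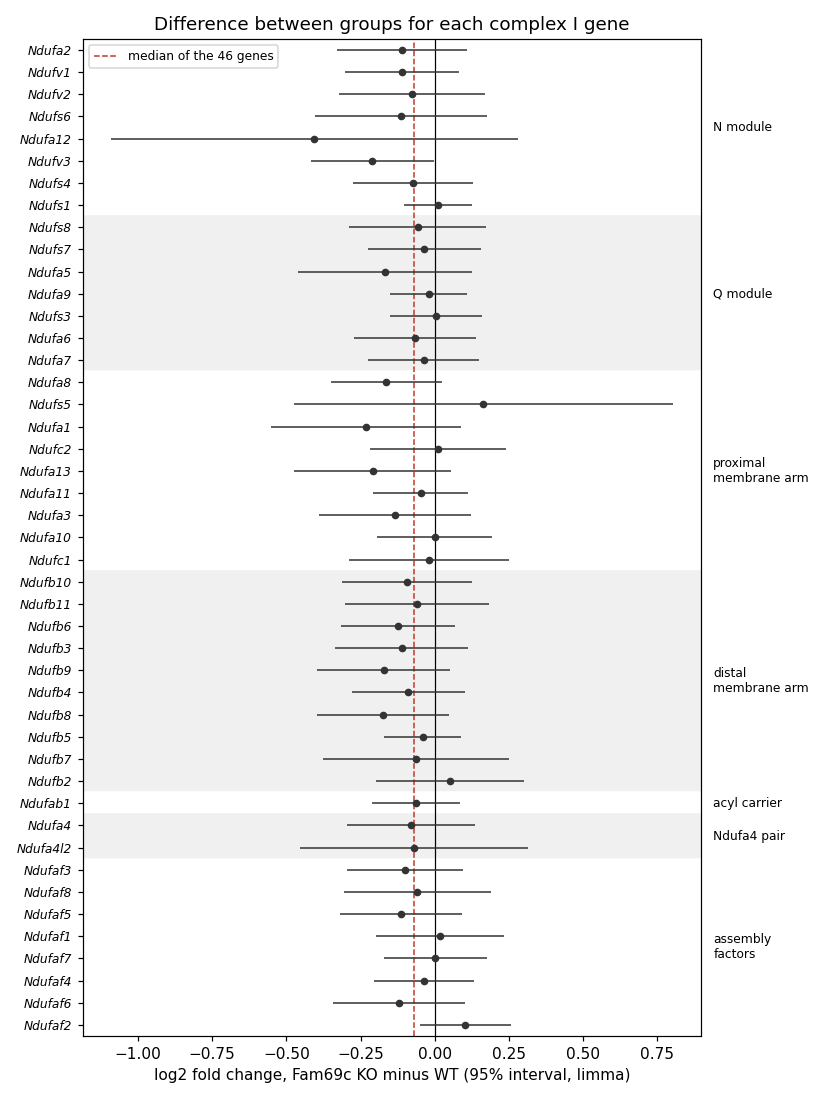
Log2 fold change, Fam69c KO minus WT, of 45 complex I genes on the log2(FPKM + 0.5) scale with its 95% interval from limma, grouped by role; the dashed line is the median of the 46 genes. Of the 45 points 37 lie left of 0, and the interval of Ndufv3 alone ends below 0, at -0.0030.

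The levels of the members spanned a wide range, from 1.94 FPKM for Ndufa4l2 to 106 FPKM for Ndufa4 as means of 6 libraries, with a median over members of 34.8 FPKM. Subunits of the complex had a median of 44.4 FPKM, and the assembly factors had a median of 9.56 FPKM, with the highest of them, Ndufaf3, at 16.9 FPKM. Among subunits, Ndufa8 and Ndufa2 stood highest and Ndufb2 lowest, at 3.30 FPKM. FPKM divides by the deposited gene length. The deposited length equalled all exon bases of a gene in GENCODE M21 for 42 of the 46 members, so a gene with a long or retained exon in any model is divided by more bases. Ndufb2 has a deposited length of 5628 bases and Ndufab1 one of 6883 bases, against a median of 1635 bases over members.

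**Figure D2:**
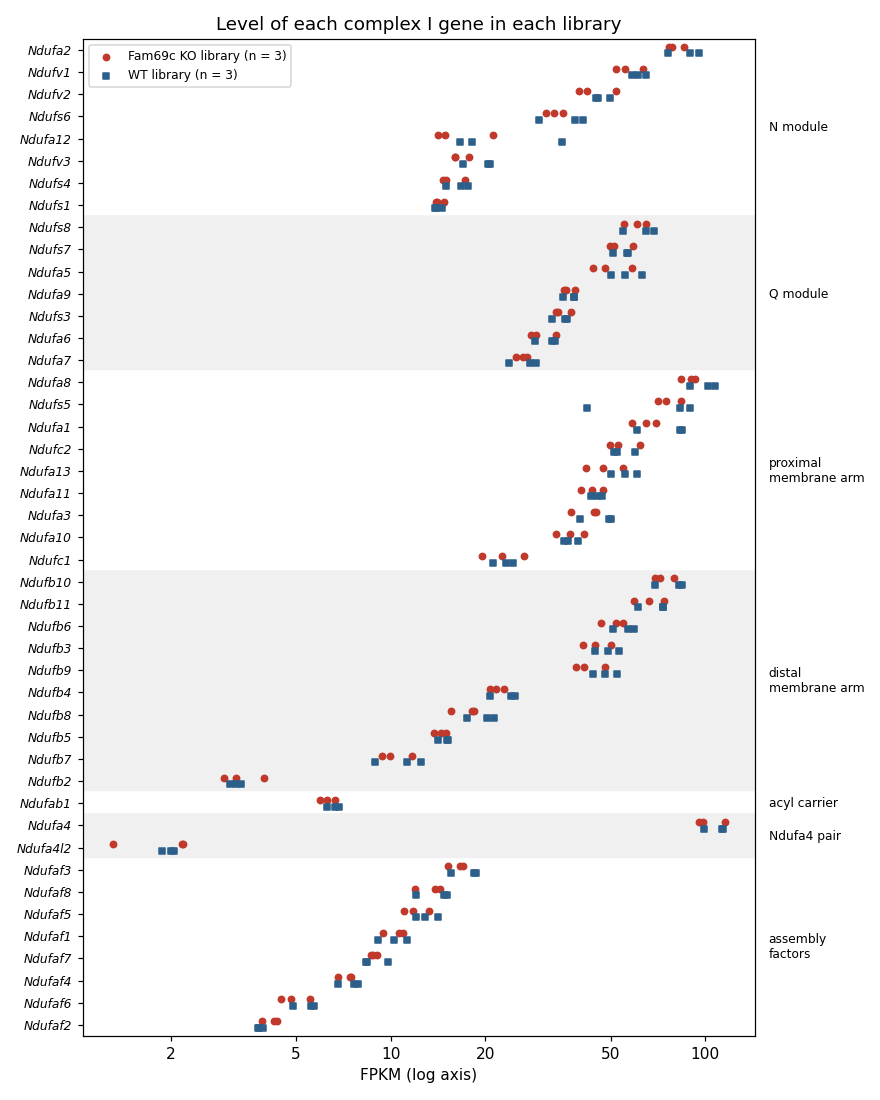
FPKM of 45 complex I genes on a log axis, 1 point per library, Fam69c KO as circles and WT as squares (n = 3 each), grouped by role and ordered by mean level within a role. The groups overlap in every row, and Ndufs5 and Ndufa12 each have 1 WT library far from the other 5 libraries.

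In the N module, which receives electrons from NADH, 7 of 8 genes had a log2 fold change below 0, with a median of -0.11, and none passed. Ndufv1, the core subunit that binds NADH and flavin, had 63.5, 52.1 and 55.6 FPKM in KO, against 64.6, 61.3 and 58.6 FPKM in WT, a log2 fold change of -0.11 (95% interval -0.30 to 0.08). Ndufv2, a core iron-sulphur subunit, had 52.0, 42.2 and 39.5 FPKM in KO, against 45.7, 49.8 and 44.8 FPKM in WT, a log2 fold change of -0.08 (-0.32 to 0.17). Both genes were highest among the KO libraries in KO1, and Ndufv2 was highest there of all 6. Ndufs1, the core subunit that carries most clusters of the module, was nearly level, with 14.8, 14.0 and 13.9 FPKM in KO and 14.0, 14.5 and 13.9 FPKM in WT. Its log2 fold change of 0.01 had a 95% interval from -0.10 to 0.13, the narrowest of the core subunits.

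Ndufv3, a supernumerary subunit beside the NADH site (mm10 chromosome 17, 31520115 to 31531326, plus strand), had the smallest p of the 46 genes. It had 17.7, 16.0 and 16.1 FPKM in KO, against 20.3, 20.7 and 16.9 FPKM in WT. WT1 and WT2 lay above the KO libraries, and WT3 lay below KO1. The means were 16.6 ± 0.953 FPKM in KO and 19.3 ± 2.09 FPKM in WT (SD, n = 3 each), a log2 fold change of -0.21 with a 95% interval from -0.42 to -0.0030 (limma unadjusted p = 0.0476, adjusted p = 0.999). Without WT3 its log2 fold change was -0.30. The supernumerary Ndufa2, Ndufs4 and Ndufs6 gave log2 fold changes of -0.11, -0.07 and -0.11. Ndufa12 had the lowest log2 fold change of all members, -0.41, with the widest interval, from -1.09 to 0.28, and is described with its pseudogene.

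In the Q module, which passes electrons to ubiquinone, 7 of 8 genes were below 0 with a median of -0.039, and none passed. Ndufs7, which holds the last iron-sulphur cluster of the chain, had 59.0, 51.1 and 49.8 FPKM in KO, against 56.8, 56.2 and 50.7 FPKM in WT, a log2 fold change of -0.03 (-0.22 to 0.15). It was lowest among the WT libraries in WT3 and highest among the KO libraries in KO1.

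Ndufs8, which carries a pair of clusters, had 64.7, 60.8 and 54.9 FPKM in KO, against 68.7, 64.6 and 54.9 FPKM in WT, a log2 fold change of -0.06 (-0.29 to 0.17). Ndufs3, a core subunit without a cofactor, had 37.4, 33.5 and 34.1 FPKM in KO, against 35.9, 36.3 and 32.5 FPKM in WT, a log2 fold change of 0.0027 (-0.15 to 0.16). The group means of Ndufs3 were 35.0 ± 2.10 FPKM in KO and 34.9 ± 2.07 FPKM in WT (SD, n = 3 each). Of the supernumerary Q genes, Ndufa5 had the smallest p, with 58.5, 48.1 and 43.9 FPKM in KO and 55.6, 63.0 and 50.2 FPKM in WT. Its log2 fold change was -0.17 with an interval from -0.46 to 0.12, and KO1 lay above WT1 and WT3. Ndufs8 and Ndufv1 are the closest neighbours among the members, 94779 bases apart on chromosome 19; the 46 genes otherwise lie scattered over 17 chromosomes.

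In the proximal membrane arm, next to the quinone channel, 7 of 9 genes were below 0 with a median of -0.047, and none passed. Ndufa8 (chromosome 2, 36036326 to 36049406, minus strand), a subunit of the intermembrane space side, had the second smallest p on the lower side. It had 92.5, 83.8 and 89.9 FPKM in KO, against 107, 102 and 89.4 FPKM in WT, so WT3 lay within the KO range. Its means were 88.7 ± 4.47 FPKM in KO and 99.6 ± 9.20 FPKM in WT (SD, n = 3 each), a log2 fold change of -0.16 (-0.35 to 0.02). Ndufa13, also known as GRIM-19 for a role in cell death, had 54.9, 41.7 and 47.4 FPKM in KO, against 60.5, 55.4 and 50.2 FPKM in WT, a log2 fold change of -0.21 (-0.47 to 0.06). In GENCODE M21 it shares 375 exon bases, 30.0% of its length, with Tssk6 on the other strand, and whether counting used strand is not given in the sources. The X-linked Ndufa1 gave a log2 fold change of -0.23 (-0.55 to 0.09). Ndufa10, Ndufc1 and Ndufc2 lay within 0.02 of 0.

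In the distal membrane arm, 9 of 10 genes were below 0, with a median of -0.091, and none passed. Ndufb8, whose protein is often blotted as a marker of assembled complex I, had the smallest p of this arm. It had 18.4, 15.5 and 18.1 FPKM in KO, against 21.3, 20.2 and 17.5 FPKM in WT. WT3 lay below KO1 and KO3, and the log2 fold change was -0.18 (-0.40 to 0.05). Ndufb9 followed with -0.17 (-0.40 to 0.05) and Ndufb6 with -0.12 (-0.32 to 0.07). Ndufb2 was the single gene of this arm above 0, with 2.96, 3.22 and 3.97 FPKM in KO and 3.09, 3.35 and 3.24 FPKM in WT, a log2 fold change of 0.05 (-0.20 to 0.30). KO3 was its highest library, and KO1 was its lowest.

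Ndufab1, the acyl carrier protein that serves both the complex and mitochondrial fatty acid synthesis, had 6.65, 6.27 and 5.98 FPKM in KO, against 6.87, 6.64 and 6.30 FPKM in WT, a log2 fold change of -0.06 (-0.21 to 0.09). Ndufa4, first described in complex I and since placed in cytochrome c oxidase, was the most abundant member (chromosome 6, 11900292 to 11907497, minus strand). It had 115, 98.2 and 95.3 FPKM in KO, against 113, 114 and 98.7 FPKM in WT, and KO1 was the highest of the 6 libraries. The means were 103 ± 10.6 FPKM in KO and 109 ± 8.48 FPKM in WT (SD, n = 3 each), a log2 fold change of -0.08 (-0.30 to 0.14). Its hypoxia-inducible relative Ndufa4l2 (chromosome 10, 127514967 to 127517154, plus strand) was the least abundant, with 2.18, 1.31 and 2.19 FPKM in KO and 2.05, 1.87 and 2.01 FPKM in WT. It rested on 48 to 86 reads per library, and its log2 fold change of -0.07 had an interval from -0.46 to 0.31. KO2 was lowest, and without KO2 the log2 fold change was 0.12.

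The assembly factors named Ndufaf were split, with 5 of 8 below 0, a median of -0.048 and none that passed. Ndufaf2, a chaperone related to Ndufa12, had the smallest p of all members on the higher side (chromosome 13, 108002715 to 108158623, minus strand). It had 4.36, 4.26 and 3.91 FPKM in KO, against 3.94, 3.81 and 3.80 FPKM in WT, so KO3 lay below WT1. Its means were 4.18 ± 0.236 FPKM in KO and 3.85 ± 0.0825 FPKM in WT (SD, n = 3 each), a log2 fold change of 0.10 (-0.05 to 0.26). A noncoding gene on the other strand, B230220B15Rik, shares 65.6% of the exon bases of Ndufaf2 and had a mean of 0.0018 FPKM. Ndufaf1, of the complex that builds the membrane arm, gave 0.02, and Ndufaf7, a methyltransferase, gave 0.0017. Ndufaf3 and Ndufaf4, which act on the early Q module, gave -0.10 and -0.04. Ndufaf5, which hydroxylates Ndufs7, and its partner Ndufaf8 gave -0.11 and -0.06, and Ndufaf6 gave -0.12, all as log2 fold changes with intervals that include 0.

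Ndufs5 and Ndufa12, with 2 of the widest intervals, are among the members that have processed pseudogenes, intronless copies of spliced messages. With a threshold of 95% identity over at least 200 bases and at least 10 reads in some library, 6 members had such a copy, 7 copies in all: Ndufa12, Ndufab1, Ndufb4, Ndufs3, Ndufs5 and Ndufs6. The coding sequence of Ndufs5, a subunit of the intermembrane space side, and its copy BC002163 on chromosome 16 are shown first, since they are nearly identical over the stretch the copy covers. The copy BC002163 has a deposited length of 319 bases, and Ndufs5 one of 860 bases. The sequences come from GENCODE M21 transcripts, 5′ to 3′, over bases 67 to 318 of the Ndufs5 coding sequence, with the differing bases in capitals.
Ndufs5: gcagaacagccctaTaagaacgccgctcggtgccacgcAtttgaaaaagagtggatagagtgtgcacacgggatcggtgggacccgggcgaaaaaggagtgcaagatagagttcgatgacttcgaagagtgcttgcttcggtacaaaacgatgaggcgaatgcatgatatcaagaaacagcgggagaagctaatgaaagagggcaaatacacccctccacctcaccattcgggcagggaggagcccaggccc
BC002163: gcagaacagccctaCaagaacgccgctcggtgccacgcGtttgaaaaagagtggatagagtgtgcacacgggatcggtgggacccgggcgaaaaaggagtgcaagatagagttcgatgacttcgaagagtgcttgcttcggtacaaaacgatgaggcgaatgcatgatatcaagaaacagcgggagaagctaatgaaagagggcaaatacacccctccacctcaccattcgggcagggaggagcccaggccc
The pair differs at 2 of 318 bases, T81C and A105G, the first base being that of Ndufs5, with positions counted from 1 at the first base of the coding sequence.
Ndufa12, with a deposited length of 1569 bases, and its copy Gm15920 on chromosome 5, with one of 402 bases, are shown for the same reason, over bases 121 to 420 of the Ndufa12 coding sequence.
Ndufa12: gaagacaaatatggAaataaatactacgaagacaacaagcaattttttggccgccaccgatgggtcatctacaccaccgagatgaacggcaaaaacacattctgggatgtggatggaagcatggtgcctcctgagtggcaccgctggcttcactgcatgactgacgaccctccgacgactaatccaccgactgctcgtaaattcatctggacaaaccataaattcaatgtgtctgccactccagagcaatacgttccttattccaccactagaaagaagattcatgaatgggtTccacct
Gm15920: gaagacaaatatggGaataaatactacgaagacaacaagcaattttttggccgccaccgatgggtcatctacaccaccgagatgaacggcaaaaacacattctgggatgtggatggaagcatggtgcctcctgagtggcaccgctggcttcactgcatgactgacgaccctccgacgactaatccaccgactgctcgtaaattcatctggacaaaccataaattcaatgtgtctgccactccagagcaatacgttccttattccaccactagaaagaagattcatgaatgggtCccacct
This pair differs at 2 of 399 aligned bases, A135G and T414C in the same notation.

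Ndufs5 (chromosome 4, 123712710 to 123718202, minus strand) had 83.4, 74.8 and 70.7 FPKM in KO, against 89.5, 82.7 and 42.1 FPKM in WT. WT3 alone was low. Its log2 fold change of 0.16, the highest of all members, had an interval from -0.47 to 0.80. In reads, Ndufs5 had 2430, 2144 and 2179 in KO and 2404, 2184 and 1202 in WT. BC002163 (chromosome 16, 42955631 to 42955949) had 19, 17 and 18 reads in KO and 11, 23 and 735 reads in WT. The copy thus held 37.9% of the summed reads in WT3 and between 0.46% and 1.04% in the other 5 libraries. Summed over both rows, the libraries held 2449, 2161 and 2197 reads in KO and 2415, 2207 and 1937 reads in WT. The ratio of the highest to the lowest library, in RPM (reads scaled to the total of the library), was 2.07 for Ndufs5 alone and 1.29 for the sum. With the reads of the copy added, which was chosen after the data were seen, the log2 fold change was -0.06 (-0.33 to 0.21), below 0 instead of above it.

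Ndufa12, a supernumerary N module subunit (chromosome 10, 94198720 to 94221443, plus strand), was singled out after its values were seen. It had 14.9, 21.2 and 14.1 FPKM in KO, against 35.0, 18.2 and 16.6 FPKM in WT, with WT1 alone high. Its reads numbered 793, 1108 and 794 in KO and 1714, 876 and 866 in WT. Gm15920 (chromosome 5, 130188395 to 130188796) had 904, 541 and 801 reads in KO and 390, 1082 and 628 reads in WT, lowest in the library where Ndufa12 was highest. The sums were 1697, 1649 and 1595 reads in KO and 2104, 1958 and 1494 reads in WT, and the ratio of the highest to the lowest library in RPM was 2.39 for Ndufa12 alone and 1.46 for the sum. The sum averaged 48.4 ± 2.50 RPM in KO and 58.5 ± 11.2 RPM in WT (SD, n = 3 each). With the copy added the log2 fold change was -0.27 (-0.62 to 0.08) in place of -0.41. For Ndufab1, Ndufb4, Ndufs3 and Ndufs6 the change was at most 0.02. How reads with several matches were assigned is not given in the sources, and the part of that step in these values was not tested. With all 7 copies added, 40 of 46 members were below 0 and the median stayed at -0.069.

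**Figure D3:**
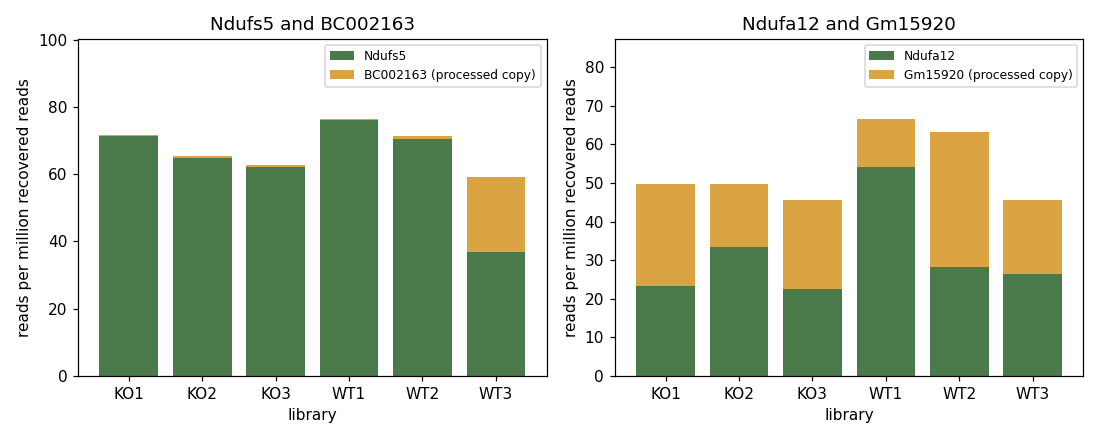
Reads scaled to the library total (RPM) in each library for Ndufs5 and its processed copy BC002163 (left) and for Ndufa12 and its copy Gm15920 (right), stacked, Fam69c KO libraries left of WT. In WT3 the copy of Ndufs5 holds 37.9% of the summed reads, and for Ndufa12 the copy's share runs from 18.5% in WT1 to 55.3% in WT2.

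The complex I genes varied together from library to library, and this variation crossed the genotypes. Each value was set against the gene's own mean of log2(FPKM + 0.5) over 6 libraries. The median over members of this deviation was 0.081, -0.065 and -0.11 in KO1, KO2 and KO3, and 0.11, 0.10 and -0.073 in WT1, WT2 and WT3. KO1 thus lay with WT1 and WT2, and WT3 lay with KO2 and KO3. Above their own mean were 37, 10 and 4 of the 46 genes in KO1, KO2 and KO3, and 40, 40 and 3 in WT1, WT2 and WT3. Over all genes tested that share stayed between 48.3% and 51.8% per library. The likeness of KO1, WT1 and WT2 was not limited to complex I. With 17982 to 18505 genes compared per pair, WT1 and WT2 differed by 2.88 times sampling noise. KO1 differed from WT2 by 3.41 and from WT1 by 3.88 times, the next closest pairs. Pairs among KO2, KO3 and WT3 lay between 4.20 and 4.93, and KO2 and WT2 at 4.16. WT3 was the lowest of the WT libraries for 41 of 46 members (89.1%), against 40.8% of all genes tested. KO1 was the highest of the KO libraries for 37 of 46 members (80.4%), against 37.8% of all genes. Summed over members, FPKM came to 1803, 1604 and 1574 in KO and 1880, 1849 and 1574 in WT.

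**Figure D4:**
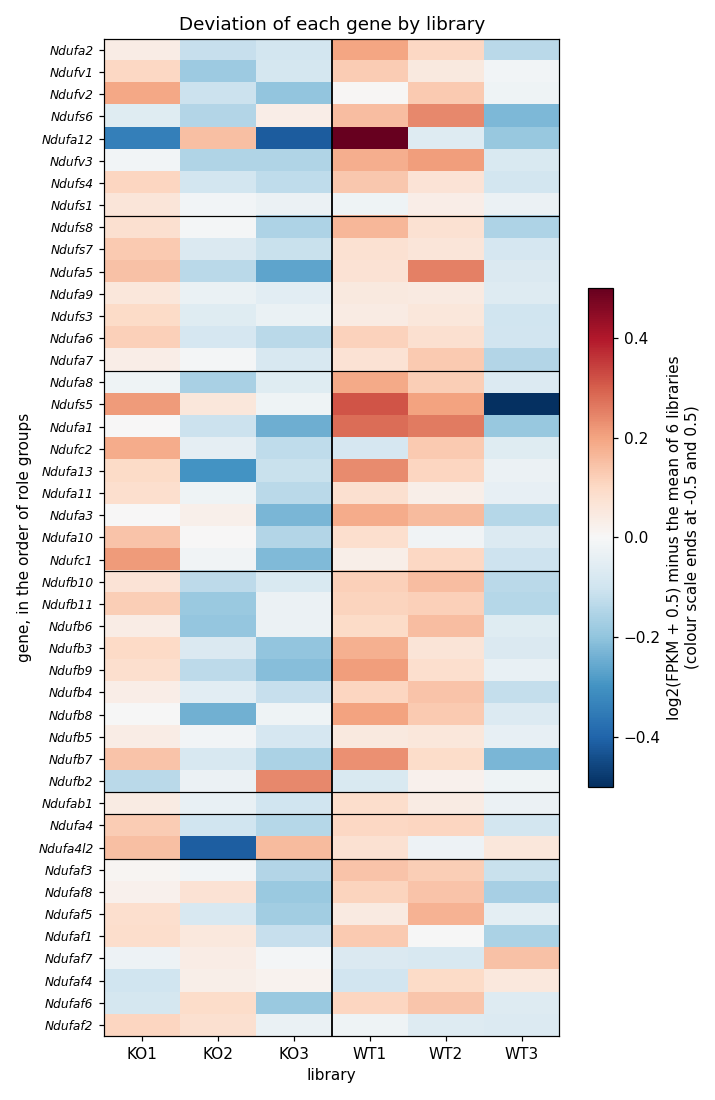
Deviation of 45 complex I genes in each library from its own 6-library mean of log2(FPKM + 0.5), in colour from -0.5 to 0.5, rows grouped by role. The columns KO1, WT1 and WT2 are mostly above the gene means, with 36, 39 and 39 of 45 genes, and KO2, KO3 and WT3 are mostly below, with 10, 4 and 3 genes above.

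The split into 3 higher and 3 lower libraries was the same in each of the 4 structural modules, while the order within it differed. In KO1, KO2 and KO3 the median deviation was 0.049, -0.11 and -0.11 for the N module, 0.090, -0.066 and -0.096 for the Q module, and 0.053, -0.11 and -0.080 for the distal arm. In WT1, WT2 and WT3 it was 0.14, 0.086 and -0.084 for the N module, 0.073, 0.074 and -0.091 for the Q module, and 0.12, 0.11 and -0.072 for the distal arm. The assembly factors differed in KO2, at 0.046, where each of the 4 structural modules was below 0. Taken library against library, the number of members lower in KO depended on the pair chosen. KO3 was lower than WT1 for 42 of 46 genes, with a median difference of -0.22, whereas KO1 was lower than WT3 for 5 of 46, with a median difference of 0.16. Between KO1 and WT2 it was 21 of 46, with a median difference of 0.0027.

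Some marker lists moved with this split of the libraries. Oligodendrocyte markers (7 of 7 measured) summed to 818, 645 and 672 FPKM in KO and 738, 811 and 619 FPKM in WT, high in the same 3 libraries as the complex I genes. Inhibitory neuron markers (7 of 7) summed to 474, 429 and 402 FPKM in KO and 467, 455 and 427 FPKM in WT, split in the same way. Excitatory neuron markers (7 of 7) summed to 1878, 1768 and 1812 FPKM in KO and 2000, 1901 and 1774 FPKM in WT, again with KO1, WT1 and WT2 higher. Astrocyte markers (7 of 7) summed to 440, 387 and 377 FPKM in KO and 450, 413 and 387 FPKM in WT, with Aldoc the most abundant. As a mean deviation over the 7 markers they did not follow the split, at 0.090, -0.038 and -0.063 in KO and 0.063, -0.037 and -0.014 in WT. Microglia markers summed to between 102 and 114 FPKM in KO and between 98.7 and 120 FPKM in WT. Their mean deviations were 0.030, 0.027 and -0.094 in KO and -0.020, 0.15 and -0.088 in WT, and did not follow the split. Endothelial markers summed to between 55.6 and 63.6 FPKM in KO and between 54.9 and 62.8 FPKM in WT. Their mean deviations were 0.032, -0.021 and 0.12 in KO and -0.12, -0.092 and 0.078 in WT. They were thus lowest in WT1 and WT2 and highest in KO3 and WT3. Choroid plexus and blood markers (5 of 7 above the level filter) summed to 134, 81.0 and 124 FPKM in KO and 123, 128 and 112 FPKM in WT, lowest in KO2, and haemoglobin genes made up most of each sum. Ttr, the transthyretin gene and the main choroid plexus marker of the list, had 8.91, 7.58 and 3.50 FPKM in KO and 2.10, 3.10 and 2.79 FPKM in WT. The groups do not overlap for Ttr, whose log2 fold change was 1.10 (limma, unadjusted p = 0.010, adjusted p = 0.999). The choroid plexus markers Kl and Folr1 fell under the level filter and were not higher in KO. They averaged 0.295 and 0.150 FPKM in KO, against 0.317 and 0.190 FPKM in WT. The 9 striatum markers were low in WT3 and KO1, of which WT3 was low and KO1 high in complex I genes. None of these lists had a marker at 0 in every library, and their part in the complex I values was not tested. In RNA from whole tissue, fewer cells of a type and less RNA per cell cannot be told apart. Without both KO1 and WT3, the libraries lowest in striatum markers, 28 members were lower at an unadjusted p under 0.05, against 8.2% of all genes, and 0 passed the adjusted threshold. Those are also the KO library with the highest and the WT library with the lowest complex I levels, so that leaving them out widens the difference between the groups by construction.

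**Figure D5:**
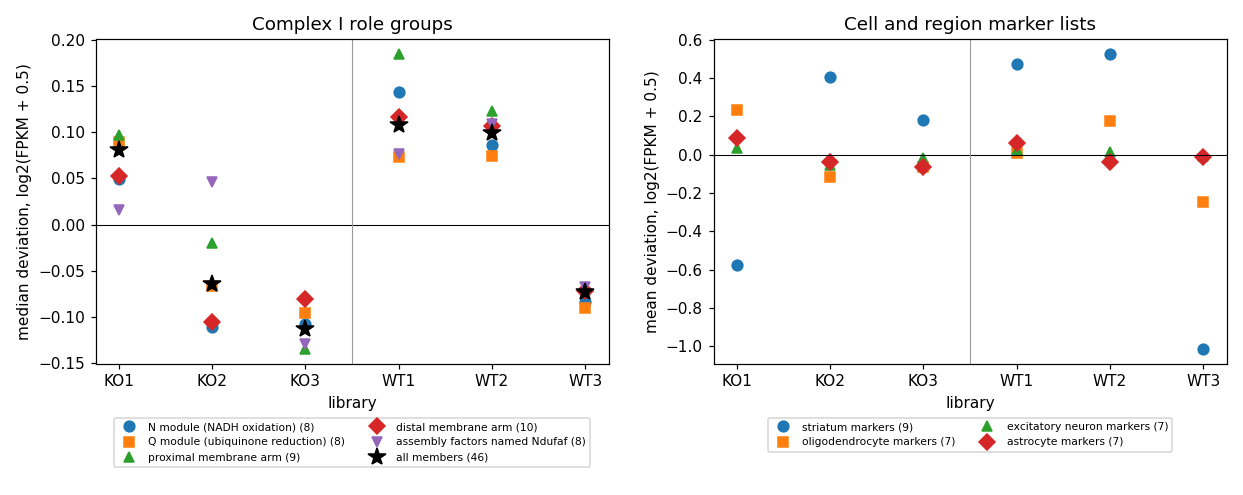
Left, median deviation from the 6-library mean for the 46 complex I genes and for 5 role groups in each library; right, mean deviation of 4 marker lists, Fam69c KO libraries left of WT in both, on the log2(FPKM + 0.5) scale. The median of the 46 genes runs from -0.11 in KO3 to 0.11 in WT1, and the striatum markers run from -1.01 in WT3 to 0.53 in WT2.

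Log2 fold changes of the members varied with the length of the gene. The median was -0.11 for the 11 members under 1000 bases, -0.091 for the 18 members from 1000 to under 2000 bases, and -0.040 for the 17 members of 2000 bases and over. All genes tested in these classes had medians of -0.019, -0.016 and -0.0021. Spearman's rho between log2 fold change and length was 0.355 over the 46 members and 0.0869 over all 15694 genes, given as a description, since genes of the same libraries are not independent. Over the members, rho was -0.237 between log2 fold change and mean FPKM, and -0.581 between mean FPKM and length. Length and level thus go together among the members, and their separate parts were not tested. With the trend of log2 values on length removed in each library, 37 members were below 0 with a median of -0.061.

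Genes of the same pathway outside the set gave no call either. Of 11 other assembly factors 10 were measured, 8 of them above 0 and 2 below, with a median log2 fold change of 0.040, and none passed. Timmdc1, a membrane assembly factor, had the smallest p, with 10.6, 10.8 and 11.2 FPKM in KO and 11.0, 10.2 and 8.77 FPKM in WT, a log2 fold change of 0.12 (-0.08 to 0.32). Nubpl, which delivers iron-sulphur clusters, gave 0.15, and Ecsit, a partner of Ndufaf1, gave -0.10. Of the 7 subunit genes of the mitochondrial genome, 5 were below 0 with a median of -0.031, and none passed. Of these, mt-Nd2 gave 0.07. The most abundant, mt-Nd1, had between 3649 and 4545 FPKM in KO and between 3977 and 4339 FPKM in WT. The short mt-Nd4l, which overlaps mt-Nd4, spread most, with 61.5, 29.2 and 100.2 FPKM in KO and 139, 126 and 44.6 FPKM in WT, a log2 fold change of -0.70 (-2.03 to 0.63).

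Of 10 regulators of mitochondrial genes, 6 were below 0 and 4 above, with a median of -0.046, and none passed. Gabpa, the DNA-binding subunit of the ETS factor NRF2/GABP, had 3.56, 4.27 and 4.42 FPKM in KO, against 3.65, 3.76 and 3.47 FPKM in WT, a log2 fold change of 0.15 (-0.06 to 0.36). KO1 lay within the WT range, and KO2 and KO3 lay above it. Esrra, an orphan nuclear receptor, gave -0.09 and the coactivator Ppargc1a gave -0.11. Nrf1 itself had 1.97, 2.04 and 2.11 FPKM in KO and 2.12, 2.08 and 2.19 FPKM in WT, a log2 fold change of -0.05 (-0.22 to 0.12).

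As a planned description, the promoters of the members were read for 3 motifs of factors known to bind genes of the respiratory chain. RefSeq windows on GRCm38.p6, from 250 bases before to 50 bases after the start, were found for 40 of the 46 members. Each motif was searched on both strands. The NRF1 motif, GCGC and TGCGC with any 1 base between them, was present for 9 of 40 members (22.5%), against 5.19% of the 27025 genes in the table and 10.9% of the 10736 matched genes that were tested here. The YY1 motif AAGATGGCG was present for 6 of 40 (15%), against 1.64% of all genes and 3.39% of the tested ones. The ETS motif CCGGAAG was present for 6 of 40 (15%), between the 9.93% of all genes and the 18.6% of the tested ones. At least 1 of the 3 motifs was present for 19 of 40 members (47.5%), against 15.1% of all genes and 29.2% of the tested ones, and the 3 motifs do not overlap each other in the windows printed here. All 6 YY1 matches lay on the sense strand after the start, between position 11 in Ndufaf8 and position 36 in Ndufs4. A match is a run of letters and was not tested as a bound site.

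The following windows show the motifs in place, in capitals, 5′ to 3′ on the strand of the gene. Ndufb4, a distal arm subunit, is the member with the most matches, 3 of the NRF1 motif beginning at positions -191, -79 and -22 from the start (chr16:37654319-37654618, minus strand).
Ndufb4: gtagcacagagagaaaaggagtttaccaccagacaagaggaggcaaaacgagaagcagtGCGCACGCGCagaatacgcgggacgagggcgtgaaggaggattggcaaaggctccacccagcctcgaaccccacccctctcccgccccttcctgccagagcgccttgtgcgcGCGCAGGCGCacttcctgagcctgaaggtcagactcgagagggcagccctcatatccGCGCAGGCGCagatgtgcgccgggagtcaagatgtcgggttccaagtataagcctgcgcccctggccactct
Ndufs6, an N module subunit, holds an NRF1 match at -16 and a YY1 match at 34 (chr13:73328433-73328732, minus strand).
Ndufs6: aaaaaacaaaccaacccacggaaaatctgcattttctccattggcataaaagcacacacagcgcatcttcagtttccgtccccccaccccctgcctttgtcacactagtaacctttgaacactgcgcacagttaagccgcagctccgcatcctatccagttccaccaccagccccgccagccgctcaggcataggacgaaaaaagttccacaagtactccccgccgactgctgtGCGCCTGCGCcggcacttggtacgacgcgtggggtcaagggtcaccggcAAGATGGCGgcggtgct
Ndufs3, a core Q module subunit, holds a pair of ETS matches on opposite strands at -27 and 2 (chr2:90904672-90904971, minus strand).
Ndufs3: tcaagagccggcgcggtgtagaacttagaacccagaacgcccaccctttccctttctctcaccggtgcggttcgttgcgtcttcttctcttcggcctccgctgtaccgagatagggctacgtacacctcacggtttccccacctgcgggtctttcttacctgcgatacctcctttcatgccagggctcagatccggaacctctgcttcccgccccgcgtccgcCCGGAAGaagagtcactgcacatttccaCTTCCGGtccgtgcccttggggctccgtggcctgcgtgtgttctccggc
Ndufv3, the member with the smallest p, holds none of the 3 motifs in this window (chr17:31519865-31520164, plus strand).
Ndufv3: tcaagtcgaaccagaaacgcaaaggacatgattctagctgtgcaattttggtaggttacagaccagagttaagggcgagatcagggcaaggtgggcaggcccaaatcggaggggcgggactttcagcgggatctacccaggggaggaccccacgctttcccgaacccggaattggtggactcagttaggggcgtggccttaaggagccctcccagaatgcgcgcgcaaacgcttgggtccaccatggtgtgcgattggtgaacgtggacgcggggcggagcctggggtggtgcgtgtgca
The log2 fold changes of these 4 genes were -0.09 for Ndufb4, -0.11 for Ndufs6, 0.0027 for Ndufs3 and -0.21 for Ndufv3.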

How the data were processed

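Per the labels' protocols, cortex RNA was isolated with Trizol and sequenced after preparation with a TruSeq RNA kit. Bowtie, without a version, and the mm10 build stand in the submitters' processing notes; no counting program and no use of strand is given in the sources. The authors deposited FPKM values per gene and library. Values times deposited length were whole multiples of 1 step for 100% of values (tolerance 0.001), which gave the reads behind each; columns of other samples numbered 0.

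From the deposited FPKM, limma 3.58.1 in R 4.3.3 compared log2(FPKM + 0.5) of Fam69c KO and WT over 15694 genes averaging 0.5 FPKM or more, with a variance trend, two-sided, Benjamini-Hochberg adjusted over all of them at 0.05. Fold changes on this scale understate changes of low genes. The planned count test was not used, since the table holds no counts. The members, role groups and other lists were chosen with earlier results of these data known. All members could be named; 1 member enters all counts and medians but is not reported here on its own or drawn in plots of single genes; values per library are given for the other core subunits, the 3 smallest p in each direction, the highest and lowest member, and the smallest p of each role group; Ndufa12, Ndufa1, mt-Nd1 and Nrf1 were added after their values were seen. Pseudogene copies were found with blastn 2.17.0 in GENCODE M21 transcripts, promoters come from RefSeq, and plots were drawn with matplotlib 3.10.9. The test was checked on simulated data with changes larger than those of the members, in genes that varied independently. That check does not cover differences of the size seen here. The closest pair of libraries differed by 2.88 times sampling noise.

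Alternatives were 2 pseudocounts, a stricter and no filter, TPM and median-ratio scaling, no variance trend, sample weights, a replicate block, protein-coding genes alone, voom on recovered reads, removal of a length trend and leaving out each library. Leaving out KO1 and WT3 together and adding reads of pseudogene copies were chosen after seeing the data.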

Additional observations from a re-analysis of the deposited data

How the results depend on the processing

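Over 20 alternatives, 0 members passed the adjusted threshold and the median log2 fold change was below 0 in each. It ran from -0.146 to -0.0349 when 1 library was left out (without WT3 and without KO3), and was -0.2089 without both KO1 and WT3. The count of members lower at an unadjusted p under 0.05, 1 in the comparison as reported, was 0 with no filter, 0 with no variance trend, 12 with sample weights (5.58% of all genes) and 28 without both KO1 and WT3 (8.2%), and ran from 0 to 10 with 1 library left out. The cause was not tested. Members below 0 numbered between 31 (without KO3) and 43 (without WT3).

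With the replicate number as a block, 6 members were lower at an unadjusted p under 0.05 (Ndufa1, Ndufa13, Ndufb3, Ndufb9, Ndufa3 and Ndufv3; 3.06% of all genes) and 0 passed. The numbers were not used as pairs in the comparison as reported. Deviations of same-numbered libraries correlated at 0.0816, 0.0135 and 0.21, and those of differently numbered libraries at between -0.164 and 0.113. The 0.21 of KO3 and WT3 was the highest. With so few libraries these values cannot decide whether the numbers pair them.

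Of 917 pairs of a member and an alternative, 52 changed sign, in 20 members; the other 26 members kept their direction throughout. TPM scaling gave Ndufa10 0.0212, Ndufa9 0.0005 and Ndufc1 0.0018. Ndufa10 was 0.0056 with median-ratio scaling, 0.0138 with voom and 0.0074 with the length trend removed. Sample weights gave Ndufs5 -0.0652, Ndufc2 -0.0264, Ndufs3 -0.0525, Ndufs1 -0.0037, Ndufaf1 -0.0208 and Ndufaf4 0.0017. Without both KO1 and WT3, Ndufs5 was -0.2413, Ndufc2 -0.109, Ndufs3 -0.0946, Ndufs1 -0.0278, Ndufaf1 -0.0955 and Ndufaf4 0.0227. Added copies gave Ndufs5 -0.0587 and Ndufs3 -0.0036. With 1 library left out, log2 fold changes ran from -0.176 to 0.3626 for Ndufs5, -0.1461 to 0.0171 for Ndufb11, -0.1497 to 0.0109 for Ndufs8, -0.0807 to 0.0779 for Ndufc2, -0.1093 to 0.0117 for Ndufs7, -0.1914 to 0.0038 for Ndufv2, -0.1011 to 0.009 for Ndufa11, -0.0721 to 0.0724 for Ndufa10, -0.0579 to 0.001 for Ndufa9 and -0.0465 to 0.0328 for Ndufs3. They ran from -0.12 to 0.0179 for Ndufa7, -0.1306 to 0.087 for Ndufc1, -0.0155 to 0.0313 for Ndufs1, -0.1566 to 0.0186 for Ndufaf8, -0.193 to 0.0365 for Ndufb7, -0.0562 to 0.0885 for Ndufaf1, -0.0376 to 0.0758 for Ndufaf7, -0.0936 to 0.0047 for Ndufaf4, -0.0549 to 0.1312 for Ndufb2 and -0.1665 to 0.1183 for Ndufa4l2. Intervals of all of these include 0 in the comparison as reported. On the strand of the gene only, the NRF1, ETS and YY1 motifs were present in 15%, 10% and 15% of member promoters. Among all 27025 genes with a promoter window those shares were 3.14%, 5.4% and 1.15%. With 3 libraries a group, a member with the median interval would need a difference of about 0.216 to leave 0.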
